A study of Mus musculus with 10 samples.

Results

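The 34 genes of ceramide and barrier lipid synthesis were examined in whole ear skin of mice under topical MC903. They were chosen by symbol as the enzymes, transporters and cofactors that make, load, oxidise and break down the ceramides of the epidermal barrier. All 34 were found among the 41388 genes of the count files, and all 34 passed the filter on low counts. RNA was sequenced from 10 C57Bl/6 mice with 1 library per mouse, 6 labelled Experimental and 4 labelled Littermate. The comparison addresses what a deletion driven by NaV1.8 does to skin in a model of itching dermatitis. The Experimental mice carried a NaV1.8-driven deletion, and the sources disagree on its target: the sample labels give NaV1.8+ Jak1F/F and the series text gives NaV1.8+ Il4raF/F. The Littermate mice were labelled WT. Both groups were treated with MC903 (calipotriol, a vitamin D analogue that provokes a dermatitis), per the series text 1 nM daily for 12 days, and no untreated skin is analysed here. NaV1.8 is a sodium channel of sensory neurons, whose cell bodies lie outside the ear, so the deletion was aimed at nerve cells and the enzymes measured here belong mostly to other cells. Age, sex, litter and batch are not stated.

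The outermost epidermis keeps water in with stacked lipid sheets made of ceramides, cholesterol and free fatty acids. Ceramides are built from a long-chain base, made from serine and an acyl chain, and a separate fatty acyl chain. The separate chain is lengthened and hydroxylated at its far end, and ceramide synthases join it to the base. Linoleate is attached to the far end, and the product is glucosylated and packed into lamellar bodies. At the surface of the granular layer the linoleate is oxidised, the sugar is removed and part of the ceramide is bound to the protein envelope, and loss of many of these enzymes causes ichthyosis in people.

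Total counts lay between 11520348 and 41935183 in the Experimental and between 12865459 and 14324433 in the Littermate libraries, and 3 counts equalled 0.0715 to 0.260 CPM. Members had between 100 counts (Lipn) and 51527 counts (Elovl4) in a library. Markers of granular and cornified keratinocytes summed to 24343 to 37744 normalized CPM in the Experimental and 26475 to 35015 in the Littermate libraries, and all 13 of those found had counts. Il4ra had 189 ± 46.9 normalized CPM in the Experimental and 217 ± 23.5 in the Littermate group (log2 fold change -0.20, adjusted p = 0.678). Jak1 had 297.8 ± 18.5 in the Experimental and 309.8 ± 25.4 in the Littermate group (log2 fold change -0.057, adjusted p = 0.815). A deletion in neurons cannot be checked from these levels, since most ear cells would keep the gene.

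No member passed the test between the groups. At an adjusted p under 0.05 over the 16830 genes tested, edgeR called 0 of 34 members, while 3 genes of all those tested were called (0.0178%), 1 higher (0.00594%) and 2 lower (0.0119%) in Experimental skin. DESeq2 called 0 members too, where it called 227 of the 15846 genes to which it gave an adjusted p (1.43%), and limma voom called 0 members and 3 genes (0.0178%). At an unadjusted p under 0.05 edgeR had 2 members, Cers5 and Elovl7, and DESeq2 and limma voom had 3 each, against 11.8% of all genes in edgeR. Cers5 (unadjusted p = 0.0146) and Elovl7 (unadjusted p = 0.0261) were higher in Experimental skin, a direction in which 3.65% of all genes reached that p. In none of the members were the 2 groups of libraries apart, which was the case for 2.12% of all genes. The log2 fold change, Experimental over Littermate, was above 0 in 26 of 34 members, against 49.6% of all genes. Its median was 0.098 over the members and -0.0013 over all genes, and members ran from -0.45 (Fa2h) to 0.37 (Cers5). Adjusted p-values of the members ran from 0.301 to 0.993. The 95% interval of the log2 fold change lay within -0.5 and 0.5, a 1.41-fold difference either way, for 29 of 34 members (85.3%), against 66.7% of all genes. Genes with more counts tend to have narrower intervals, and 32 of 34 members stood above the 50th percentile of level per gene length. The 2 shares are thus not of genes at like level. The 5 members with wider intervals were Elovl4, Cers4, Cers5, Fa2h and Lipk. Leaving out 1 library moved the log2 fold change of 25 of 34 members by over 1.5 times or changed its sign, and the 9 for which it did not were Sptlc1, Sptlc2, Elovl7, Cers5, Degs1, Nipal4, Ugcg, Abca12 and Acer1. When Y-linked expression entered the fit as a covariate, the members' median was 0.028 and 21 of 34 values were above 0. The 4 Y-linked genes summed to 282 to 339.5 normalized CPM in the Experimental and 229 to 301 in the Littermate libraries. The log2 difference between the groups was 0.18 (two-sided exact permutation p = 0.0667). All 10 libraries thus held Y-linked RNA, and the covariate does not divide them into male and female mice. The part of the Y-linked level in the result was not tested.

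**Figure D1:**
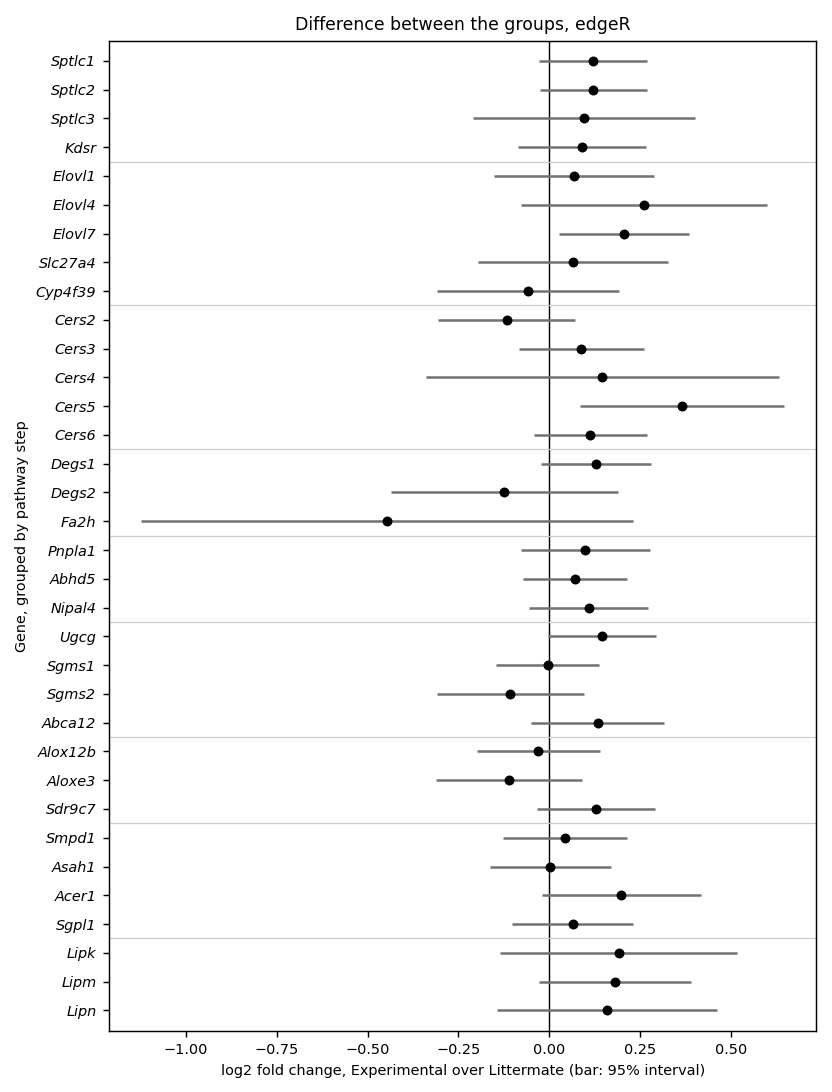
Log2 fold change, Experimental over Littermate, of each of the 34 genes from the edgeR fit, with its 95% interval as a bar, grouped by pathway step. The intervals of 32 genes include 0, those of Cers5 and Elovl7 lie above it, and Fa2h at -0.45 has the widest.

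The members with the lowest p-values were Cers5, Elovl7, Ugcg and Acer1, and in each the Experimental mean was the higher. Cers5, a ceramide synthase that prefers palmitoyl chains, had 82.4 normalized CPM in its lowest, 96.1 in its median and 139 in its highest Experimental library, against 71.7, 82.6, 85.2 and 71.6 in Littermates 1 to 4. The highest value was that of Experimental 5, 4 of the 6 Experimental libraries lay above every Littermate library, and the groups overlapped. For Cers5 the log2 fold change was 0.37 (95% interval 0.085 to 0.65, edgeR adjusted p = 0.301). Elovl7, an elongase of long fatty acyl chains, had 229 normalized CPM in its lowest, 258 in its median and 301 in its highest Experimental library, against 216, 225, 249.9 and 219.5 in Littermates 1 to 4. Again 4 Experimental libraries lay above all Littermates, and Littermate 3 reached into the Experimental range. Its log2 fold change was 0.21 (95% interval 0.028 to 0.38, edgeR adjusted p = 0.346).

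Ugcg, which adds glucose to ceramide so that it can be carried in lamellar bodies, had 244 normalized CPM in its lowest, 269 in its median and 286 in its highest Experimental library, against 224, 258, 250.2 and 240.1 in Littermates 1 to 4. All Experimental libraries except the lowest, Experimental 4, lay above every Littermate. The log2 fold change of Ugcg was 0.15 (95% interval -0.0020 to 0.29, edgeR adjusted p = 0.431). Acer1, the alkaline ceramidase of the epidermis, had 148 normalized CPM in its lowest, 155 in its median and 198 in its highest Experimental library, against 127, 152, 164 and 120.2 in Littermates 1 to 4. Experimental 3 was the highest library, and Littermates 2 and 3 lay inside the range of the Experimental libraries. For Acer1 the log2 fold change was 0.20 (95% interval -0.020 to 0.42, edgeR adjusted p = 0.476).

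The promoters of these 4 genes are shown because they carry the largest differences relative to their error, and they show how unlike the starts of the members are. Each window runs from 250 bases before to 50 bases after the transcription start, 5′ to 3′ on the gene's strand, from RefSeq on GRCm38.p6. Capitals mark matches to the GC box, GGGCGG on either strand, the letters bound by factors of the Sp family.
Cers5: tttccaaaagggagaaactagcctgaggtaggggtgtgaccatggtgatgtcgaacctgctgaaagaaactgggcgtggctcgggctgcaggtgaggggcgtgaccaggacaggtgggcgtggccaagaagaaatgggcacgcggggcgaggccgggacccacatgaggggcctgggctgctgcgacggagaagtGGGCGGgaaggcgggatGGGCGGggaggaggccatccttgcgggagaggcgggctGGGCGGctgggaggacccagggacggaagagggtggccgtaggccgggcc
Elovl7: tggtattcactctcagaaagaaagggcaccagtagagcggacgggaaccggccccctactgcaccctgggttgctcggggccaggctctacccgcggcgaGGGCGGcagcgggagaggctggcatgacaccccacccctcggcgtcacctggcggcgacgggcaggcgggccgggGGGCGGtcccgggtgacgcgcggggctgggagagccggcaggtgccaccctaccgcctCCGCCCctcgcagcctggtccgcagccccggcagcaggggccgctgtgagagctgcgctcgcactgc
Ugcg: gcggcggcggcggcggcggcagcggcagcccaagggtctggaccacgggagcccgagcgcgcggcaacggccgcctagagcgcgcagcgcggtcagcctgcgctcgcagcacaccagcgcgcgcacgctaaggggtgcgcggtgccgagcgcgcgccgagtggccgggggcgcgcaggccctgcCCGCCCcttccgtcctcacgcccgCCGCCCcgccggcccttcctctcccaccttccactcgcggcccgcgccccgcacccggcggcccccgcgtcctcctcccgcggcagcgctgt
Acer1: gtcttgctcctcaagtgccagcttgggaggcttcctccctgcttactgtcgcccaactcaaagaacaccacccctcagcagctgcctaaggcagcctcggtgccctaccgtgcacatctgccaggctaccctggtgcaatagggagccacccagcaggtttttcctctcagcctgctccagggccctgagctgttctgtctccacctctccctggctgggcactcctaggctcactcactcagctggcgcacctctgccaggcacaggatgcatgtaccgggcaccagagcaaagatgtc
The windows lie at chr15:99772466-99772765, minus strand for Cers5, chr13:108214154-108214453, plus strand for Elovl7, chr4:59189300-59189599, plus strand for Ugcg and chr17:56982077-56982376, minus strand for Acer1. Cers5 has 3 GC boxes and 20 CpG sites, Elovl7 has 3 and 30, and Ugcg has 2 and 53. Acer1 has no GC box and 5 CpG sites. In the deposited annotation (mm10) these genes are ENSMUSG00000023021 (Cers5, chromosome 15, 99734881 to 99772885), ENSMUSG00000021696 (Elovl7, chromosome 13, 108214404 to 108287105), ENSMUSG00000028381 (Ugcg, chromosome 4, 59189257 to 59222833) and ENSMUSG00000045019 (Acer1, chromosome 17, 56953490 to 56982126).

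The printed windows of Cers5 and Ugcg lie wholly inside the deposited bounds of those genes, which begin before the RefSeq starts used. Windows were found for 30 of the 34 members, 40 in all because some genes have several starts. The GC box stood in 57.5% of the member windows and in 35.7% of all 32851 RefSeq windows of the same length. The median number of CpG sites was 15.5 in member windows, with a range of 1 to 53, and 7 in all windows. The TATA box (TATAAA, both strands) stood in 2 of the 40 member windows (5%) and in 13.6% of all. The AP-1 letters TGANTCA stood in 4 member windows (10%) and in 7.81% of all, and the E-box CACGTG in 12.5% of member windows and 7.15% of all. The Grainyhead-like motif AACCGGTT stood in 1 of the 40 member windows (2.50%), a window of Sgms1, and in 0.146% of all windows. Windows rather than genes were counted, and Sgms1 and Sgms2 have several each. The AP-1 matches lay in windows of Lipn, Sgms1 and Sgms2, and the TATA boxes in windows of Sdr9c7 and Sgms1. None of these motifs other than the GC box occurs in the 4 windows printed. A match to letters is a description and no measure of binding.

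**Figure D2:**
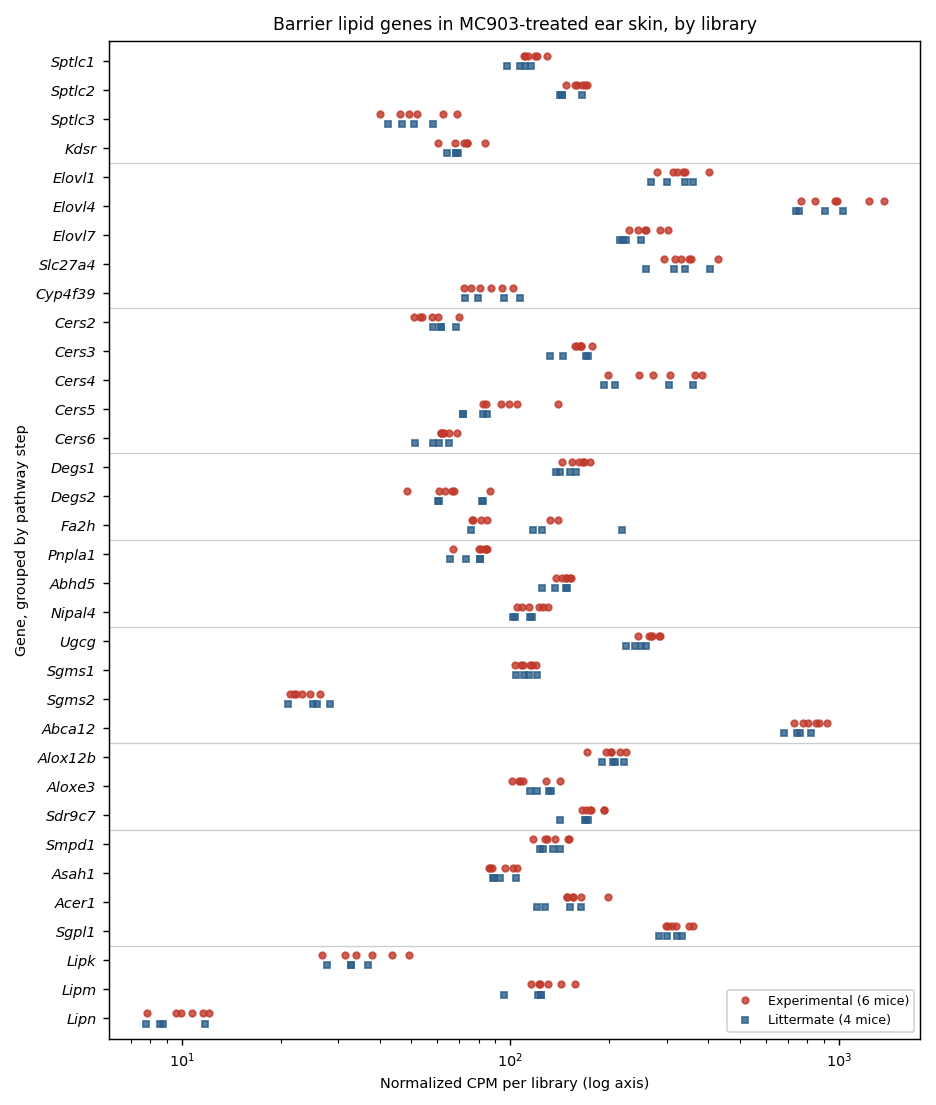
Normalized CPM of the 34 genes in each library on a log axis, grouped by pathway step. Circles are the 6 Experimental and squares the 4 Littermate mice, and for every gene the 2 sets overlap.

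The first step, in which serine palmitoyltransferase joins serine to an acyl chain and Kdsr reduces the product, had positive log2 fold changes in all 4 members, with a median of 0.11 and none called. Sptlc1, the shared subunit of the transferase, had 110.2 normalized CPM in its lowest, 116 in its median and 129 in its highest Experimental library, against 97.9, 111, 115 and 107 in Littermates 1 to 4. The groups overlapped, with Littermate 1 lowest. Its log2 fold change was 0.12 (95% interval -0.029 to 0.27, edgeR adjusted p = 0.533). Sptlc2, the main catalytic partner, averaged 162 ± 8.63 normalized CPM in the Experimental and 148 ± 11.4 in the Littermate group (SD, n = 6 and 4), and Littermate 2 stood above the other Littermates. Sptlc3, the catalytic partner of skin and a few other tissues, ran from 40.1 to 68.6 in Experimental and from 42.3 to 58.3 normalized CPM in Littermate libraries, the widest spread of the step. Kdsr averaged 72.0 ± 7.82 normalized CPM in the Experimental and 67.7 ± 2.26 in the Littermate group. Per gene length, Sptlc2 held 52.0% ± 6.07 of the summed level of Sptlc2 and Sptlc3 in the Experimental and 51.3% ± 3.69 in the Littermate group.

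Among the suppliers of ultra-long fatty acids, 4 of 5 log2 fold changes were positive and none was called. Elovl4, the elongase that makes the ultra-long chains of acylceramides, had 764 normalized CPM in its lowest, 976 in its median and 1364 in its highest Experimental library, against 740.4, 756, 1026 and 903 in Littermates 1 to 4. Experimental 3 and 5 lay above every other library, and the other Experimental values fell among those of the Littermates. For Elovl4 the log2 fold change was 0.26 (95% interval -0.078 to 0.60, edgeR adjusted p = 0.553), and it was 0.16 without Experimental 5. Elovl1, which makes very long saturated chains, averaged 332 ± 41.0 normalized CPM in the Experimental and 316 ± 40.6 in the Littermate group, and its log2 fold change was 0.069 (95% interval -0.15 to 0.29, edgeR adjusted p = 0.843). It was 0.0073 without Littermate 4 and 0.14 without Littermate 3. Slc27a4, an acyl-CoA synthetase of fatty acid uptake, averaged 345 ± 46.4 normalized CPM in the Experimental and 330.1 ± 60.9 in the Littermate group, and its log2 fold change of 0.066 changed sign without Littermate 2 (-0.034). Cyp4f39, the mouse cytochrome P450 that hydroxylates the far end of the chain, was the negative member with 85.3 ± 11.4 normalized CPM in the Experimental and 88.8 ± 15.4 in the Littermate group and a log2 fold change of -0.059 (95% interval -0.31 to 0.19, edgeR adjusted p = 0.887).

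The ceramide synthases, each with its own preferred chain length, had 4 positive and 1 negative log2 fold change, and none was called. Cers3, which uses ultra-long chains and is required for the barrier, had 157 normalized CPM in its lowest, 164 in its median and 177 in its highest Experimental library, against 144, 170.1, 172 and 132 in Littermates 1 to 4. The Experimental libraries lay close together except Experimental 4, within the range of the Littermates or just above it. On the log2 scale the groups differed by 0.089 (95% interval -0.082 to 0.26, edgeR adjusted p = 0.707), and by 0.030 without Littermate 4. Cers4, a synthase of skin and hair follicles, had 198 normalized CPM in its lowest, 288 in its median and 383 in its highest Experimental library, against 193, 209, 304 and 359 in Littermates 1 to 4. The Experimental and Littermate libraries covered nearly the same range, and the log2 fold change of 0.15 ran from 0.026 without Littermate 1 to 0.34 without Littermate 4. Cers2, which makes very long chain ceramides in many tissues, had 50.8 normalized CPM in its lowest, 55.9 in its median and 69.9 in its highest Experimental library, against 58.3, 61.6, 61.4 and 68.6 in Littermates 1 to 4. Here 4 of 6 Experimental libraries lay below every Littermate while Experimental 6 was the highest of all, and the log2 fold change was -0.12 (95% interval -0.31 to 0.072, edgeR adjusted p = 0.642). It was -0.059 without Littermate 4 and -0.18 without Experimental 6. Cers2 shares 75 bases of exon (2.04% of its length) with Setdb1 on the other strand. Cers6, another palmitoyl-preferring synthase, averaged 63.6 ± 2.86 normalized CPM in the Experimental and 58.8 ± 5.71 in the Littermate group.

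Of the summed level of the 5 ceramide synthases per gene length, Cers3 took the largest share, 40.5% ± 4.13 in the Experimental and 41.4% ± 4.41 in the Littermate group. Cers5 took 22.4% ± 3.01 in the Experimental and 19.1% ± 1.15 in the Littermate group. The share of Cers4 was 18.9% ± 3.36 in the Experimental and 18.8% ± 4.95 in the Littermate group. Cers2 had 12.5% ± 1.64 in the Experimental and 14.9% ± 1.25 in the Littermate group. Cers6 had 5.73% ± 0.499 in the Experimental and 5.79% ± 0.670 in the Littermate group. The shares of Cers5 and Cers2 lay a few percentage points apart between the groups, with ranges that overlapped, and those of the other synthases differed by less than their SD.

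The desaturation and hydroxylation step held the most variable member. Fa2h, which places a hydroxyl group next to the acid end of the chain and is abundant in sebaceous glands, had 76.2 normalized CPM in its lowest, 83.0 in its median and 139.6 in its highest Experimental library, against 117, 76.1, 125 and 219 in Littermates 1 to 4. Littermate 4 was far above all other libraries, and Experimental 3 and 5 stood apart from the other 4 Experimental libraries. For Fa2h the log2 fold change was -0.45 (95% interval -1.12 to 0.23, edgeR adjusted p = 0.606), and it was -0.095 without Littermate 4 and -0.64 without Littermate 2. Degs1, the desaturase that completes the common ceramide, averaged 161 ± 11.1 normalized CPM in the Experimental and 147 ± 9.26 in the Littermate group, with a log2 fold change of 0.13 (95% interval -0.022 to 0.28, edgeR adjusted p = 0.509). Degs2, which makes phytoceramide, averaged 65.5 ± 12.4 normalized CPM in the Experimental and 71.3 ± 12.6 in the Littermate group, with a log2 fold change of -0.12 (95% interval -0.43 to 0.19, edgeR adjusted p = 0.785). It was -0.036 without Littermate 4 and -0.22 without Experimental 6. Degs2 shares 485 bases of exon (13.6% of its length) with Evl on the other strand, and reads of the pair cannot be told apart without strand.

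The 3 genes of acylceramide formation had log2 fold changes close to one another, and none was called. Pnpla1, the transacylase that moves linoleate onto the ceramide, had 67.1 normalized CPM in its lowest, 82.6 in its median and 85.2 in its highest Experimental library, against 80.7, 65.4, 80.7 and 73.1 in Littermates 1 to 4. In it 4 Experimental libraries lay above all Littermates and Experimental 6 lay well below the others. Its log2 fold change was 0.10 (95% interval -0.078 to 0.28, edgeR adjusted p = 0.680), and it was 0.040 without Littermate 2. Abhd5, a cofactor of lipases that also assists Pnpla1, averaged 147 ± 5.76 normalized CPM in the Experimental and 139.7 ± 11.0 in the Littermate group. Nipal4, an ichthyosis gene for a membrane protein, averaged 118 ± 10.1 normalized CPM in the Experimental and 109 ± 7.64 in the Littermate group. Abhd5 and Pnpla1 overlap opposite-strand transcripts over 950 bases (26.3% of the length) and 644 bases (14.4%), and the partners had 9.05 and 0.341 normalized CPM on average.

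In head group addition and lamellar body loading, Ugcg (above) and Abca12 had positive and both sphingomyelin synthases negative log2 fold changes. Abca12, the lipid pump of lamellar bodies whose loss causes harlequin ichthyosis, had 726 normalized CPM in its lowest, 826 in its median and 916 in its highest Experimental library, against 759, 743, 822 and 679 in Littermates 1 to 4. The highest 3 Experimental libraries lay above all Littermates, and the others overlapped with them. Abca12 had a log2 fold change of 0.13 (95% interval -0.049 to 0.32, edgeR adjusted p = 0.576). Sgms1, the sphingomyelin synthase of the Golgi, averaged 112 ± 6.10 normalized CPM in the Experimental and 112 ± 6.96 in the Littermate group, with a log2 fold change of -0.0041 (95% interval -0.15 to 0.14, edgeR adjusted p = 0.990). Sgms2, the synthase of the plasma membrane, averaged 23.3 ± 1.87 normalized CPM in the Experimental and 25.1 ± 3.02 in the Littermate group, with a log2 fold change of -0.11 (95% interval -0.31 to 0.095, edgeR adjusted p = 0.703). It was -0.034 without Littermate 4 and -0.18 without Littermate 2.

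Of the 3 genes of linoleate oxidation and attachment to the envelope, 2 had negative and 1 a positive log2 fold change, and none was called. Alox12b, the lipoxygenase that oxidises the linoleate of acylceramide, averaged 202 ± 18.4 normalized CPM in the Experimental and 206 ± 13.1 in the Littermate group, with a log2 fold change of -0.030 (95% interval -0.20 to 0.14, edgeR adjusted p = 0.919). Aloxe3, which acts on the product of Alox12b, had 101 normalized CPM in its lowest, 108 in its median and 142 in its highest Experimental library, against 120.1, 115, 131 and 133 in Littermates 1 to 4. In it 4 of 6 Experimental libraries lay below all Littermates and Experimental 4 was the highest. For Aloxe3 the log2 fold change was -0.11 (95% interval -0.31 to 0.091, edgeR adjusted p = 0.687), and it was -0.068 without Littermate 4 and -0.17 without Experimental 4. Both lipoxygenases lie side by side on chromosome 11 (Aloxe3 at 69125896 to 69149115, Alox12b at 69156989 to 69169792, mm10), and Alox12b held 82.2% ± 1.02 of their summed level per gene length in the Experimental and 81.3% ± 0.739 in the Littermate group. Sdr9c7, the dehydrogenase of the following step, averaged 178 ± 11.6 normalized CPM in the Experimental and 163 ± 14.6 in the Littermate group, with a log2 fold change of 0.13 (95% interval -0.032 to 0.29, edgeR adjusted p = 0.537) and of 0.076 without Littermate 4.

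Among the genes of ceramide release and breakdown, Acer1 (above) had the largest value and none was called. Smpd1, the acid sphingomyelinase that frees ceramide from sphingomyelin, averaged 135 ± 13.1 normalized CPM in the Experimental and 131 ± 8.43 in the Littermate group. Asah1, the acid ceramidase, averaged 93.8 ± 8.27 normalized CPM in the Experimental and 93.7 ± 7.26 in the Littermate group, with a log2 fold change of 0.0033 (95% interval -0.16 to 0.17, edgeR adjusted p = 0.993). Sgpl1, the lyase that ends sphingolipid breakdown, averaged 324 ± 25.9 normalized CPM in the Experimental and 309 ± 21.8 in the Littermate group, with a log2 fold change of 0.065 (95% interval -0.10 to 0.23, edgeR adjusted p = 0.791) and of 0.026 without Littermate 2. The groups overlapped in each of these genes.

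The epidermal acid lipases Lipk, Lipn and Lipm, which are made in the uppermost living layers, lie together on chromosome 19 (34008254 to 34122687, mm10). All 3 log2 fold changes were positive with a median of 0.18, the highest of the 9 steps, and none was called. Lipm had 116 normalized CPM in its lowest, 126 in its median and 157 in its highest Experimental library, against 121, 124, 124 and 95.6 in Littermates 1 to 4. Littermate 4 lay well below every other library, and the groups overlapped. Its log2 fold change was 0.18 (95% interval -0.028 to 0.39, edgeR adjusted p = 0.501), and it was 0.11 without Littermate 4. Lipm shares 139 bases of exon (5.15% of its length) with Ankrd22 on the other strand. Lipk ran from 26.7 to 49.2 in Experimental and from 27.7 to 37.0 normalized CPM in Littermate libraries, with a log2 fold change of 0.19 (95% interval -0.13 to 0.52, edgeR adjusted p = 0.661) and of 0.11 without Experimental 4. Lipn, the least counted member, ran from 7.84 to 12.1 in Experimental and from 7.79 to 11.8 normalized CPM in Littermate libraries. Lipm held 69.0% ± 2.72 of the summed level of the 3 lipases per gene length in the Experimental and 68.9% ± 1.67 in the Littermate group.

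Levels were compared between genes as normalized CPM per kilobase of the gene length in the files. Elovl4 was the highest, with 339 ± 75.8 in the Experimental and 283 ± 44.5 in the Littermate group (mean ± SD). Elovl1 followed with 122 ± 15.03 in the Experimental and 116 ± 14.9 in the Littermate group, and then Alox12b with 83.0 ± 7.58 in the Experimental and 84.8 ± 5.40 in the Littermate group. Alox12b and the fourth gene, Slc27a4, which had 78.3 ± 10.5 in the Experimental and 74.8 ± 13.8 in the Littermate group, did not differ beyond their spread. From Acer1 to Cers3 the levels lay close, and Acer1, Degs1 and Sdr9c7 had 66.5, 62.2 and 58.8 in the Experimental group. At the low end, Cers6 had 7.17 ± 0.322 in the Experimental and 6.62 ± 0.644 in the Littermate group. Lipn had 5.47 ± 0.813 in the Experimental and 4.90 ± 0.936 in the Littermate group. The lowest member, Sgms2, had 3.97 ± 0.318 in the Experimental and 4.27 ± 0.514 in the Littermate group. Over all libraries Elovl4 was 77.4 times as high as Sgms2. Of the 34 members 19 stood above the 90th percentile of all tested genes on this scale and 32 above the 50th, with a median percentile of 92.2. The length used is the union of all annotated exons, so a gene with long rare exons is understated.

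**Figure D3:**
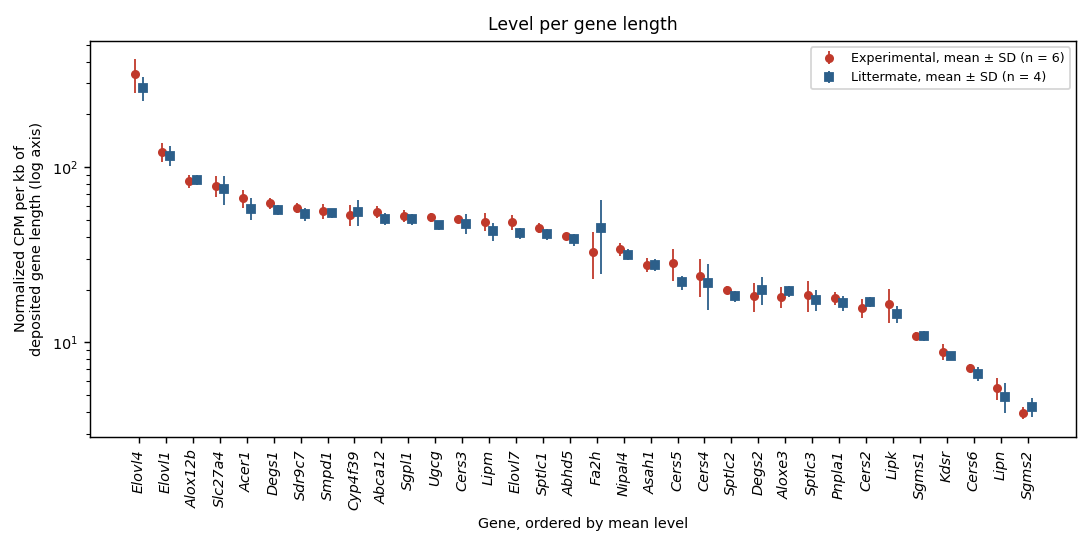
Normalized CPM per kilobase of gene length on a log axis, mean ± SD, for the Experimental (n = 6) and Littermate (n = 4) mice, with genes ordered by mean level. Elovl4 stands above all other genes, and Fa2h has the widest error bars for its level.

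The members differed in how much they varied between mice. The coefficient of variation over the 10 libraries ran from 5.42% (Sgms1) to 40.0% (Fa2h), with a median of 9.54% over the members and 13.3% over all tested genes. Most members stood high in level among the tested genes, and no comparison with genes at like level was made. In 8 members it was above 15%. After Fa2h the most variable were Cers4 (25.1%), Cers5 (21.7%), Elovl4 (21.6%) and Lipk (19.7%). In Cers4, Elovl4 and Fa2h the highest Experimental values were those of Experimental 3 and 5, and the highest Littermate values were those of Littermates 3 and 4. The summed normalized CPM of the 34 members was 6423 ± 461 in the Experimental and 5947 ± 377 in the Littermate group, and Experimental 3 had the highest sum with 7096.

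**Figure D4:**
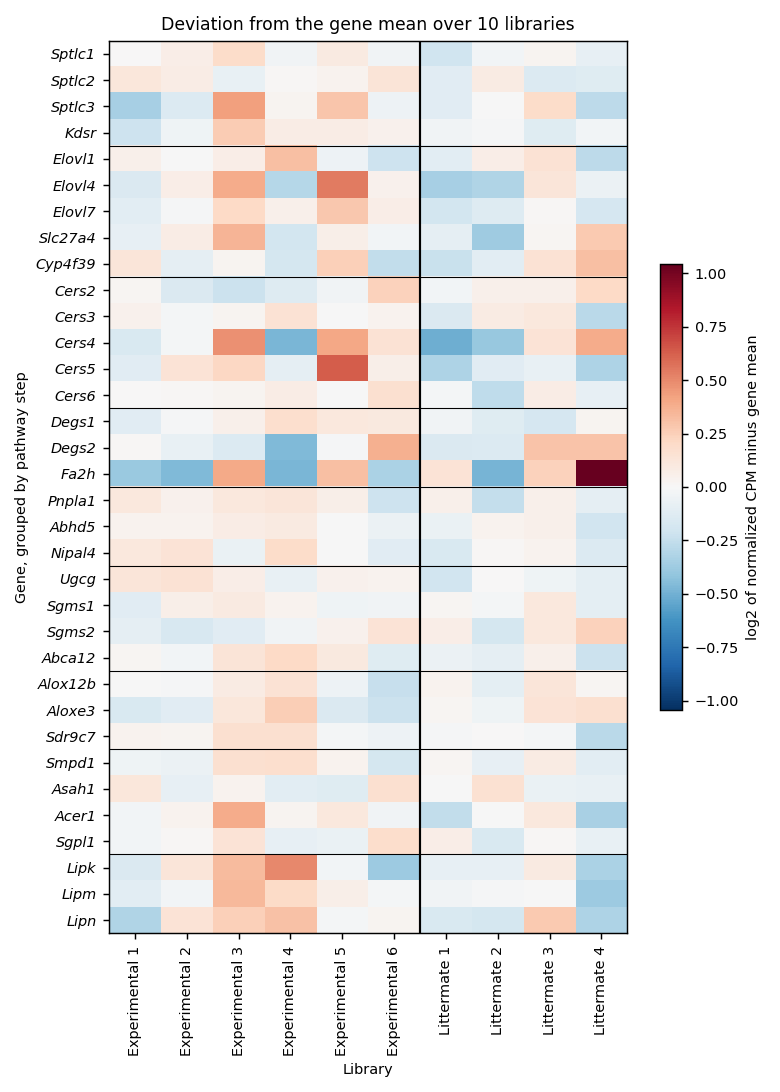
Log2 of normalized CPM minus the gene's mean over the 10 libraries, with genes in rows by pathway step and libraries in columns, Experimental left of Littermate. Fa2h is highest in Littermate 4, Cers5 in Experimental 5, and Cers4 and Elovl4 are high in Experimental 3 and 5.

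Markers of sebocytes, the cells of the sebaceous gland, also varied between libraries. Their summed level (9 genes, none at 0) was 3615, 3355, 4713, 2973, 5061 and 3539 normalized CPM in Experimental libraries 1 to 6, against 3146, 2865, 4898 and 4912 in Littermates 1 to 4. Experimental 3 and 5 and Littermates 3 and 4 thus stood apart from the other 6 libraries, and the groups overlapped (log2 difference -0.011, two-sided exact permutation p = 0.967). Taken gene by gene, 7 of the 9 sebocyte markers had positive and 2 negative log2 fold changes. Their median was 0.19, with a range from -0.097 to 0.54, and none was called. Since the libraries fell into separate clusters, no relation was taken over all 10. Within the 6 lower libraries 6 members had a Pearson's r with the sebocyte markers above 0.7 either way. Of the positive ones, r was 0.771 for Slc27a4 (exact permutation p = 0.0639, Spearman's rho 0.771), 0.780 for Cers4 (exact permutation p = 0.0875, rho 0.600), 0.724 for Degs2 (exact permutation p = 0.0889, rho 0.771) and 0.728 for Elovl4 (exact permutation p = 0.135, rho 0.600). Of the negative ones, r was -0.744 for Sptlc3 (exact permutation p = 0.0764, rho -0.771) and -0.732 for Aloxe3 (exact permutation p = 0.0875, rho -0.771). For Fa2h r was 0.065 and rho was 0.600. None of the 34 relations with the sebocyte markers passed adjustment over the 68 computed, and the smallest adjusted p was 0.403. With only 720 orders of 6 libraries, a relation had little room to pass that adjustment, so no absence of relation follows. Fewer cells of a type and less RNA per cell cannot be told apart in whole tissue, and the part of sebaceous gland content in these levels was not tested.

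Against the summed granular and cornified markers over 10 libraries, Cers2 was the member whose Pearson correlation passed adjustment. Its r was -0.907 (permutation p = 0.00038, adjusted over 68 relations p = 0.0258) and Spearman's rho was -0.855 (permutation p = 0.00254, adjusted p = 0.173). Without the libraries farthest from the median, Experimental 6 and Littermate 4, r was -0.744, and within the 6 Experimental libraries it was -0.954. Cers2 was thus lower in libraries with more granular marker RNA. The Pearson relation passed in 3 of the 10 repeats with 1 library left out, those without Experimental 4, Littermate 1 or Littermate 2, with adjusted p from 0.0136 to 0.207. Over 10 libraries no Spearman relation passed. For Degs2, r was -0.735 (permutation p = 0.0147, adjusted p = 0.403) and rho was -0.733 (permutation p = 0.0199, adjusted p = 0.676). Without Experimental 4 its r was -0.906 and passed (permutation test, adjusted p = 0.0136). Without Experimental 1, 2 or 3 it did not pass (permutation test, adjusted p = 0.437, 0.430 and 0.638 in that order). Without the same libraries farthest from the median, r for Degs2 was -0.371. These relations were computed after the levels had been seen.

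**Figure D5:**
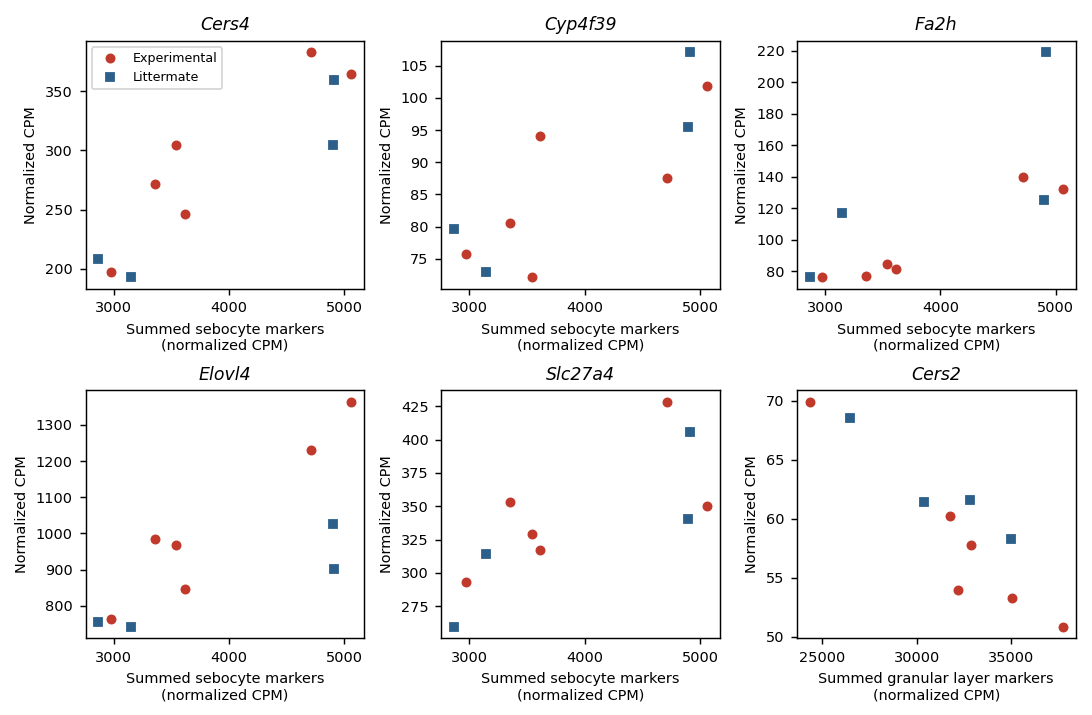
Normalized CPM of Cers4, Cyp4f39, Fa2h, Elovl4 and Slc27a4 against the summed sebocyte markers, and of Cers2 against the summed granular layer markers, with 1 point per library. Circles are Experimental and squares Littermate mice, the sebocyte sums leave a gap between 3615 and 4713, and Cers2 is lowest where the granular sum is highest. In the sebocyte panels the r of the text covers only the libraries below that gap. Degs2, Sptlc3 and Aloxe3, the last 2 with negative r, are not shown.

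Other marker lists were set beside the members. Macrophage and monocyte markers summed to 903 to 1329.6 normalized CPM in the Experimental and 1341 to 1562 in the Littermate libraries, so that the groups did not overlap (log2 difference -0.37, two-sided exact permutation p = 0.00952, adjusted over 12 measures p = 0.114). All 8 markers of that list had counts in the libraries. They had 7 negative and 1 positive log2 fold change, with a median of -0.24. Lyz2, a member of the list, was by itself called lower (edgeR adjusted p = 0.0026), and the sum without it was not computed. Basal keratinocyte markers summed to 17291 to 23547 normalized CPM in the Experimental and 20302 to 23092 in the Littermate libraries (exact permutation p = 0.952), and activated keratinocyte markers to 10588 to 17693 normalized CPM in the Experimental and 12098 to 16723 in the Littermate libraries (exact permutation p = 0.871). The summed markers of hair shaft, neutrophils, adipocytes, Schwann cells and skeletal muscle had exact permutation p-values from 0.181 to 0.914. Taken gene by gene, none of these markers was called. Of 8 hair shaft markers 3 were tested, and all 3 had positive log2 fold changes, from 0.403 to 1.55. All 5 neutrophil markers were negative, with a median of -0.46. S100a8 stood both in that list and among the activated keratinocyte markers, so the sums of these lists share a gene. Adipocyte markers had 2 positive and 4 negative values. Schwann cell and skeletal muscle markers each had 1 positive and 5 negative values. The part of these cells in the members' levels was not tested.

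Genes around the pathway were read from the same fit. Of 21 tested regulators and side chains of sphingolipid synthesis 0 were called, 14 had positive and 7 negative log2 fold changes, and the median was 0.087. The lowest p-values were those of Sptssa, a small activating subunit of serine palmitoyltransferase, with 107.8 ± 8.6 normalized CPM in the Experimental and 90.7 ± 19.9 in the Littermate group (log2 fold change 0.25, edgeR adjusted p = 0.429), and of Acsl3, an acyl-CoA synthetase (log2 fold change 0.21, edgeR adjusted p = 0.469). Of 23 genes of sphingolipid degradation and sphingosine phosphate signalling 0 were called, with 12 positive and 11 negative values and a median of 0.0015. Galc, the lysosomal galactosylceramidase, had 10.2 ± 1.36 in the Experimental and 12.6 ± 1.92 in the Littermate group (log2 fold change -0.29, edgeR adjusted p = 0.368), and Sphk2, a sphingosine kinase, differed by -0.14 on the log2 scale (edgeR adjusted p = 0.509). Of 19 other barrier lipid and envelope genes 0 were called, with 10 positive and 9 negative values and a median of 0.034. The lowest p-values there were those of Tgm5, a transglutaminase of the envelope (log2 fold change 0.21, edgeR adjusted p = 0.331), and Fabp5, the fatty acid binding protein of keratinocytes (log2 fold change 0.24, edgeR adjusted p = 0.468).

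In the transcription factors of the epidermal barrier most values were negative. Of 20 factors 0 were called, 17 had negative and 3 positive log2 fold changes, and the median was -0.12. At an unadjusted p under 0.05 there were 6, all negative, against 8.1% of all genes in that direction. Tfap2a, a factor of early keratinocyte differentiation, had 23.6 ± 2.16 normalized CPM in the Experimental and 34.5 ± 9.47 in the Littermate group (log2 fold change -0.55, edgeR adjusted p = 0.175). Klf4, a factor required to form the barrier, had 261 ± 30.2 in the Experimental and 332 ± 52.4 in the Littermate group (log2 fold change -0.35, edgeR adjusted p = 0.229). Without Littermate 2, 4 factors were called lower, where 307 of 17095 genes were (1.8%), with adjusted p = 0.00791 for Tfap2a and 0.0351 for Klf4, and the others, named after their values were seen, were Ppard and Gata3. With all libraries Ppard had a log2 fold change of -0.45 and an adjusted p of 0.241, and Gata3 -0.32 and 0.284. No factor was called when any other single library was left out. Without Littermate 2 and Experimental 6, 5 were called lower, where 461 of 16857 genes were (2.73%), the fifth being Vdr, the receptor of calipotriol (log2 fold change -0.33, edgeR adjusted p = 0.0444, against -0.14 and 0.740 with all libraries). Of all single omissions, those of these 2 libraries raised the number of genes called most, to 343 and 28. The calls without both are therefore no independent support for a difference in these factors. Without Littermate 2 and Experimental 6, 1 gene of the list of other barrier lipid and envelope genes, Cyp4f18, was also called lower. Its log2 fold change was -0.55 (edgeR adjusted p = 0.0424), against -0.25 and 0.728 with all libraries. Which cells of the skin held its RNA was not tested. The median of the factors was -0.031 without Littermate 4, -0.19 without Littermate 2, -0.05 after a correction for GC content and -0.0024 with the Y-linked level as a covariate.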

How the data were processed

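RNA of whole ear skin was sequenced in 10 libraries, grouped by the labels as Experimental (6) or Littermate (4). Ribosomal RNA was removed by hybridization, random hexamers primed the cDNA and single reads were taken, per the labels' protocols, which describe no strand marking. The submitters' processing notes name the aligner STAR 2.0.4b, the package Subread with its counter featureCounts 1.4.5, and the mouse build mm10. They do not give the annotation release, the strand setting or how multi-mapping reads were treated. Per the file headers, the authors deposited a read count per gene, a CPM value scaled by the library total and an RPKM value scaled also by gene length. Only the counts were tested. Gene identifiers were paired with symbols for 97.3% of genes.

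Genes were tested in edgeR 4.0.16 with TMM factors (0.984 to 1.02), filterByExpr by group, a robust quasi-likelihood test, two-sided, and Benjamini-Hochberg adjustment over 16830 genes at 0.05. The common biological coefficient of variation was 12.8%. Normalized CPM uses the TMM factors, errors are SD over libraries, and intervals on log2 fold changes are 95%. Summed marker levels got an exact permutation test (210 splits), and correlations by 100000 permutations, or all 720 orders for 6 libraries. Symbols of 3 list genes were not matched (Cert1, Sts and Flg), and Elovl2, with 21 counts in all, was not tested. Nor were the hair shaft markers Krt31, Krt81, Krt86, Krtap4-16 and Krtap8-1 (16 to 62 counts in all), which entered only the sums. Named beside the members are the called genes of each pathway list or its 2 lowest p-values. Promoters are printed for the 4 members of lowest p. The members and lists were chosen with earlier results of these data known. Alternatives were DESeq2 1.42.0, limma 3.58.1 voom, other factors and filters, a Y-linked covariate, a replicate block and omitted libraries. A GC correction and the removal of Experimental 2 and 3, the deepest libraries, were added once the data had been seen. Fits were tested on simulated counts. P-values measure the spread between mice of unknown litter and cage.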

Additional observations from a re-analysis of the deposited data

Results flagged for a closer look

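In groups of 4 or 6 libraries, 7 of 90 sets of values held 1 library far from the others, where chance gives about 1 in 20, or 4.5. Acer1, the epidermal ceramidase, had 198 normalized CPM in Experimental 3, against 164 in the nearest library of the group. Cers3 had 177 in Experimental 4, with the nearest at 165. Pnpla1 had 67.1 in Experimental 6, with the nearest at 80.5. Sptlc2 had 165 in Littermate 2, with the nearest at 143. Littermate 4 was far below the others in Sdr9c7, with 141 against 169 in the nearest, and in Lipm, with 95.6 against 121. Summed skeletal muscle markers were 3389 in Experimental 5, with the nearest at 2595.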

How the results depend on the processing

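No member was called in any of the 21 alternatives, where the smallest adjusted p of a member was 0.176 (Cers5). The median log2 fold change of the members lay between 0.080 and 0.14 in all alternatives except the Y-linked covariate (0.028), and 21 to 27 of 34 members were above 0. Genes called over the whole table numbered 3, but 78 with no filter on low counts, 227 by DESeq2, 67 with the replicate block, 563 without Littermate 2 and Experimental 6, and 3 to 343 with 1 library left out. They were 343 without Littermate 2, 28 without Experimental 6 and 8 without Littermate 3. Same-numbered libraries did not deviate together (r from -0.021 to 0.091, and 1 of 4 Littermates correlated best with its own number), so the block pairs a number only; with it 0 members were called. Of 714 member values 34 changed sign, in 11 members whose reported values were at most 0.18 either way. With the Y-linked covariate these were Sptlc3 (-0.21), Elovl1 (-0.025), Cyp4f39 (0.037), Cers3 (-0.029), Smpd1 (-0.018), Asah1 (-0.035) and Lipm (-0.011). Without Littermate 2 and Experimental 6 they were Slc27a4 (-0.016), Sgms1 (0.00066) and Sgpl1 (-0.0020), and without Experimental 2 and 3 Slc27a4 (-0.028). Sgms1 was 0.0014 with RLE and 0.014 with upper-quartile factors, 0.0074 with no filter, 0.0022 by DESeq2 and 0.015 with the block. Asah1 was -0.0026 with a filter of 1 CPM, -0.0091 with the block and -0.046 with the GC correction, and Alox12b 0.035 with the block and 0.039 with the GC correction. With 1 library left out, Slc27a4 ran from -0.034 to 0.19, Cyp4f39 from -0.14 to 0.054, Sgms1 from -0.028 to 0.038, Alox12b from -0.068 to 0.015 and Asah1 from -0.028 to 0.059. The cause was not tested.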
